A study of Homo sapiens with 6 samples.

Results

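The noncoding host genes of small nucleolar RNAs (snoRNAs) were examined in DLD-1 cells, an established human colorectal cancer line, after knockdown of the aryl hydrocarbon receptor (AHR), a ligand-activated transcription factor. Members were the genes whose current symbol is SNHG (small nucleolar RNA host gene) followed by a number, together with GAS5, DANCR, EPB41L4A-AS1 and ZFAS1, with at least 1 count. By this rule 31 of the 60483 genes in the count tables were members, and SNHG27, the other gene with a matching symbol, was at 0 in every library. SNHG32 is typed as protein-coding in the GENCODE 29 annotation, under the name C6orf48, and was kept with the other members. RNA-seq of total RNA gave 3 libraries of cells transfected with control siRNA and 3 of cells transfected with AHR siRNA, all grown in RPMI-1640 medium with fetal bovine serum. The control cells thus also received an siRNA, and neither the time after transfection nor the siRNA sequences are known from the labels. Separate cultures are not named for the 3 libraries of a group, so the p-values below cover the spread between libraries only, and that spread may be technical.

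In vertebrates most snoRNAs are cut from the introns of host transcripts, and box C/D snoRNAs guide 2'-O-methylation while box H/ACA snoRNAs guide pseudouridylation of ribosomal RNA. Many noncoding hosts start with a terminal oligopyrimidine (TOP) tract like that of ribosomal protein mRNAs, which ties their translation to growth signals through mTORC1 and LARP1, and several spliced host RNAs are removed by nonsense-mediated decay when they are translated. A change in the level of a spliced host RNA can therefore come from its making or its decay, and counts of the host do not measure the snoRNAs themselves.

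The first bases of the hosts are shown because the TOP tract is the sequence feature that the family is known for. RefSeq (GRCh38.p14) promoter entries were found for 27 of the 31 members, leaving SNHG6, which was not used, and SNHG9, SNHG15 and SNHG25. The lines below give 10 bases before the annotated start and the first 20 bases of the transcript, 5′ to 3′ on the strand of the gene, so that the transcript begins at base 11. Capitals mark the longest run of at least 5 pyrimidines whose first base lay within 10 bases of the start. The first 7 lines are all the hosts whose transcript begins with a C followed by 4 bases that were each C or T, and the last 2 are the hosts SNHG1 and SNHG17, shown as hosts that fell, in which the marked run began at base 5 and base 3 of the transcript.
SNHG32 (chr6:31834906-31834935, plus strand): cattttagTTCTTTTTgcgaagtgggctcg
ZFAS1 (chr20:49278632-49278661, plus strand): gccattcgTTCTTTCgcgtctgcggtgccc
SNHG4 (chr5:139274091-139274120, plus strand): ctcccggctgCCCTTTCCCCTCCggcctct
SNHG18 (chr5:9546190-9546219, plus strand): gccgcgccgCCTCCTCCTCCTCCTCCTCCC
SNHG5 (chr6:85678714-85678743, minus strand): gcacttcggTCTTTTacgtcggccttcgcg
SNHG19 (chr16:2155339-2155368, minus strand): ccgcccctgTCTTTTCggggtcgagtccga
SNHG12 (chr1:28581854-28581883, minus strand): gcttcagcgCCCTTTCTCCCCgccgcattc
SNHG1 (chr11:62855866-62855895, minus strand): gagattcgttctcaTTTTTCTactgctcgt
SNHG17 (chr20:38435309-38435338, minus strand): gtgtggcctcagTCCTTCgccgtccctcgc
A C followed by 4 pyrimidines thus stood at the first base in 7 of 27 host promoters (25.9%), against 4.07% of all 35116 promoters in the same table and 58.8% of 80 promoters of ribosomal protein genes. The entries of GAS5 and EPB41L4A-AS1, both counted among the hosts without this start, have the same 10 bases before the annotated start and are uncertain, and without them the share was 7 of 25 (28%). In GENCODE 29, 6 of 29 GAS5 transcripts had the C start. A run of at least 5 pyrimidines lay within 10 bases of the start in 74.1% of the hosts and in 42.3% of all promoters. Hosts with the C start were found among those called higher (4 of 9), lower (1 of 4) and not called (2 of 9) after AHR siRNA, by the test described below. Among GENCODE 29 transcripts, 39 of 294 host transcripts (13.3%) began this way, against 2.41% of all 206694, and 15 of the 31 hosts had at least 1 such transcript. By this count the hosts were 4 of 9 called higher, 3 of 5 called lower and 7 of 11 not called, another order than with RefSeq. The AHR core motif GCGTG, searched on both strands of the 300-base promoter, was present in 17 of 27 hosts (63%) and in 36.5% of all promoters, and the E-box CACGTG in 7.41% and 7.26%. All 4 matched hosts called lower held GCGTG, as did 4 of 9 called higher, 5 of 9 not called and 4 of 5 not tested. Of the 80 promoters of ribosomal protein genes, 48.8% held it. These matches describe letters in a window and not sites bound in these cells.

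AHR itself, the target of the siRNA, was at 117, 144 and 132 CPM (counts per 1000000 counts of the library, scaled with edgeR's TMM factors) in the control libraries and at 95.8, 87.4 and 95 CPM after AHR siRNA, a log2 fold change of -0.50 (SE 0.08, adjusted p = 1.98e-05, edgeR quasi-likelihood test). The groups did not overlap, and 70.8% of the control level was left. Libraries held 11567736 to 15037145 counts, with TMM factors of 0.926 to 0.965 in the control group and 1.05 to 1.06 in the AHR siRNA group. Summed epithelial markers (EPCAM, CDH1, KRT8, KRT18, KRT19, CLDN4, CLDN7) were at 11757 to 13291 CPM in control and 8137 to 8476 CPM in AHR siRNA libraries, with 5 of 7 called lower. Colonic markers summed to 349 to 376 and 345 to 349 CPM. Markers of fibroblasts (DCN and LUM at 0), leukocytes and endothelium (KDR at 0) summed to at most 4.21 CPM in any library. The part of the epithelial marker difference in the results on host genes was not tested. In bulk RNA a lower count per cell and fewer cells of a kind cannot be told apart.

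Host genes changed in both directions after AHR siRNA. EPB41L4A-AS1, SNHG18, SNHG32, SNHG29, SNHG4, SNHG30, SNHG20, ZFAS1 and DANCR rose, and SNHG17, SNHG1, SNHG12, SNHG16 and SNHG15 fell. Of the 31 members, 25 passed the filter on low counts and were tested, 9 were called higher and 5 lower at an adjusted p under 0.05, and 11 were not called. The called share was 56.0%, against 60.1% of all 14900 tested genes, of which 30.0% were higher and 30.1% lower. The share of hosts called was therefore near that of all genes. The groups did not overlap for 9 hosts that were higher and 7 that were lower, and this background was 63.7% of tested genes (32.0% higher, 31.7% lower). Restricted to genes that averaged 5 CPM or more, 13 of 21 hosts (61.9%) were called, 8 higher and 5 lower, against 67.1% of all such genes (30.7% higher, 36.4% lower).

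The changes were mostly small. The median log2 fold change of the 25 tested hosts was 0.10, against 0.01 over all tested genes, and the median absolute value was 0.32, against 0.39. EPB41L4A-AS1 alone passed a 2-fold difference (4.0% of the tested hosts, against 13.2% of tested genes). For comparison, of 1448 other tested long noncoding genes 43.4% were called, 33.0% higher and 10.4% lower, with a median of 0.33. With libraries scaled by their totals alone, 14 hosts were called higher and 3 lower and their median was 0.25. That scaling shifted the median of all genes to 0.15 and the share of called genes that were higher from 50% to 64.7%.

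**Figure D1:**
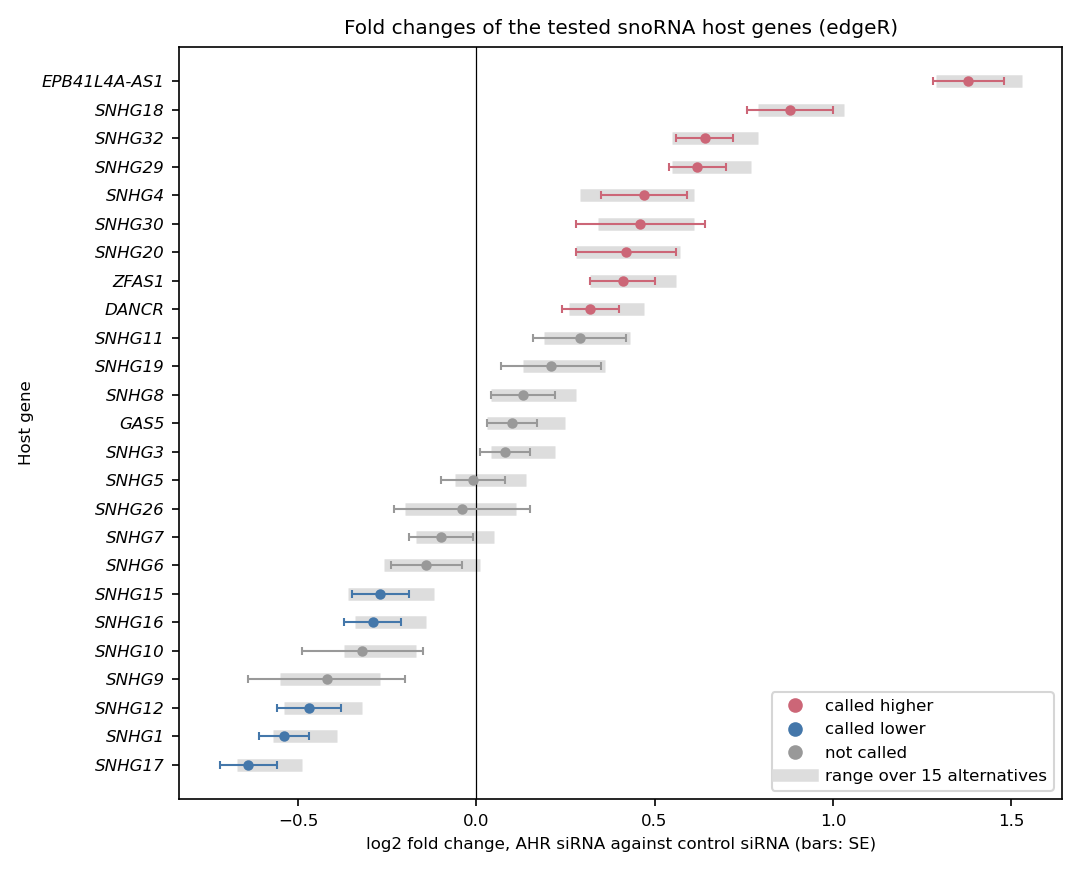
log2 fold change (horizontal axis, AHR siRNA against control siRNA) of the 25 tested host genes (vertical axis), with SE bars, coloured by call, over the range of values in 15 alternative settings (grey bars). Values ran from -0.64 in SNHG17 to 1.38 in EPB41L4A-AS1, and the grey bar of none of the 14 called hosts reached 0.

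Among hosts of box C/D snoRNAs, 5 of 11 tested were called higher and 2 lower (63.6%, against 60.1% of all tested genes), with a median of 0.21. These 11 leave out GAS5, for which no embedded gene was found in both GENCODE 29 and the count tables. SNHG29, which carries SNORD49A, SNORD49B and SNORD65, was at 199, 171 and 174 CPM in the control libraries and at 303, 277 and 255 CPM after AHR siRNA. The groups did not overlap, and the log2 fold change was 0.62 (SE 0.08, adjusted p = 1.21e-06). Over the 6 libraries SNHG29 held 16.2% of host gene counts, the largest share of any host. SNHG32, the host of SNORD48 and SNORD52 in the major histocompatibility complex region, was at 59.9, 47.6 and 51.9 CPM in control libraries and at 84.2, 82.3 and 81.3 CPM after AHR siRNA. Its 3 AHR siRNA libraries lay close together and all above the control libraries (log2 fold change 0.64, SE 0.08, adjusted p = 1.51e-06).

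SNHG18, the host of SNORD123, was at 9.68, 8.08 and 9.46 CPM in control and at 18.6, 14.9 and 16.6 CPM in AHR siRNA libraries. It had the second largest rise of the family, with separate groups (log2 fold change 0.88, SE 0.12, adjusted p = 5.29e-06). ZFAS1, a noncoding RNA that starts beside ZNFX1 and carries the SNORD12 genes, was at 25.5, 22.6 and 20.2 CPM and at 30.6, 31.3 and 28.9 CPM, again without overlap (log2 fold change 0.41, SE 0.09, adjusted p = 0.00102). SNHG30, the host of SNORD7, had a low level of 3.93 ± 0.37 CPM in control and 5.46 ± 0.91 CPM in AHR siRNA libraries (SD, n = 3 each; log2 fold change 0.46, SE 0.18, edgeR adjusted p = 0.0340). Its call was lost with DESeq2 (adjusted p = 0.0845) and without control replicate 3 (0.120), AHR siRNA replicate 1 (0.151) or AHR siRNA replicate 2 (0.0791).

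SNHG1 moved the other way. It carries a row of box C/D genes from SNORD22 to SNORD30 and shares its promoter region with SLC3A2, the heavy chain of amino acid transporters. It was at 240.2, 216 and 216 CPM in control libraries and at 154 CPM in each AHR siRNA library. The groups were well apart, at 68.8% of the control level (log2 fold change -0.54, SE 0.07, adjusted p = 1.02e-06). SNHG16, the host of the SNORD1 genes, was at 66.6, 60 and 60.8 CPM and at 55.2, 49.9 and 48.6 CPM, without overlap (log2 fold change -0.29, SE 0.08, adjusted p = 0.00337). With library totals alone it was at -0.14 and no longer called (adjusted p = 0.114).

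The other box C/D hosts, and GAS5, were not called. SNHG5, the host of SNORD50B, was at 36.0, 31.6 and 33.8 CPM in control and at 36.0, 34.5 and 30.4 CPM in AHR siRNA libraries, with overlapping groups (log2 fold change -0.01, SE 0.09, adjusted p = 0.943). SNHG6, which carries SNORD87, was at 36.3, 31.1 and 31.6 CPM and at 34.9, 27.9 and 27.4 CPM (log2 fold change -0.14, SE 0.10, adjusted p = 0.244). Replicate 1 was the highest of each group, and without AHR siRNA replicate 1 SNHG6 was called lower at -0.26 (adjusted p = 0.0360). SNHG19, which carries SNORD60, was at 8.03, 7.04 and 7.0 CPM and at 9.53, 8.38 and 7.71 CPM (log2 fold change 0.21, SE 0.14, adjusted p = 0.203), and SNHG26, the host of SNORD93, was at a log2 fold change of -0.04 (SE 0.19). GAS5, a growth-arrest transcript known as a host of many box C/D snoRNAs, was at 204, 194 and 182 CPM and at 227, 199 and 195 CPM. Its groups overlapped (log2 fold change 0.10, SE 0.07, adjusted p = 0.251), and it was called higher with upper-quartile factors (0.18, adjusted p = 0.0417) and with library totals alone (0.25, adjusted p = 0.00547).

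Among hosts of box H/ACA snoRNAs, 3 of 10 tested were called higher and 2 lower, with a median of 0.10. The called hosts were thus 5 of 10, a share below the 60.1% of all tested genes. EPB41L4A-AS1, the host of SNORA13, had the largest change of the tested hosts. It was at 12.8, 12.6 and 10.7 CPM in control libraries and at 34.3, 29 and 30.6 CPM after AHR siRNA. Every AHR siRNA library was far above every control library, at 260.0% of the control mean (log2 fold change 1.38, SE 0.10, adjusted p = 1.43e-09). DANCR, a noncoding RNA known for opposing differentiation and the host of SNORA26, was at 109, 90.2 and 92.3 CPM and at 122, 127 and 116 CPM. The groups did not overlap (log2 fold change 0.32, SE 0.08, adjusted p = 0.00133). SNHG4, which carries SNORA74A and SNORA74D, was at 14.6, 22.5 and 21.2 CPM and at 27.0, 27.2 and 26.6 CPM. Control replicate 1 was low, and without it the log2 fold change fell from 0.47 (SE 0.12, adjusted p = 0.00250) to 0.29 (adjusted p = 0.00886).

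SNHG17, the host of the SNORA71 genes, fell most. It was at 46.4, 44.1 and 45.8 CPM in control and at 29.8, 29.6 and 28.1 CPM in AHR siRNA libraries, with a wide gap between the groups (log2 fold change -0.64, SE 0.08, adjusted p = 8.34e-07). SNHG15, the host of SNORA9, was at 50, 47.8 and 50.4 CPM and at 46.1, 39.1 and 38 CPM, and AHR siRNA replicate 1 came near the control libraries without reaching them (log2 fold change -0.27, SE 0.08, adjusted p = 0.00881). Its call was lost without AHR siRNA replicate 3 (-0.22, adjusted p = 0.0557), with upper-quartile factors (-0.19, adjusted p = 0.0542) and with library totals alone (-0.12, adjusted p = 0.209).

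SNHG3, the host of SNORA73A and SNORA73B, whose RNA takes part in cleavage of the ribosomal RNA precursor, was at 159, 150.1 and 152 CPM and at 165, 169 and 152 CPM, with overlapping groups (log2 fold change 0.08, SE 0.07, adjusted p = 0.339). SNHG8, the host of SNORA24, was at 65.7, 51.8 and 58.2 CPM and at 70.9, 61.6 and 59.7 CPM (log2 fold change 0.13, SE 0.09, adjusted p = 0.223), and it was called higher without control replicate 1 (0.21, adjusted p = 0.0202). SNHG7, the host of the SNORA17 genes, was at 34.4, 28.8 and 31.5 CPM and at 31.6, 30.9 and 26.1 CPM, and its groups overlapped (log2 fold change -0.10, SE 0.09, adjusted p = 0.398). SNHG11, which carries SNORA60 and SNORA71E, was at 7.65, 9.73 and 8.85 CPM and at 11, 9.49 and 11.6 CPM. AHR siRNA replicate 2 lay within the control range (log2 fold change 0.29, SE 0.13, adjusted p = 0.0726), and SNHG11 was called higher at 0.37 without control replicate 2 (adjusted p = 0.0465) or without AHR siRNA replicate 2 (adjusted p = 0.0475). SNHG9, the host of SNORA78, was lower in all AHR siRNA libraries (2.2 to 2.35 CPM) than in control libraries (2.55 to 3.54 CPM) but was not called (log2 fold change -0.42, SE 0.22, adjusted p = 0.110).

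SNHG12, the tested host with genes of both classes, carries SNORD99 and SNORA16A, SNORA44 and SNORA61. It was at 39.8, 38 and 43.6 CPM in control and at 32.5, 28.7 and 26.9 CPM in AHR siRNA libraries, without overlap (log2 fold change -0.47, SE 0.09, adjusted p = 1.75e-04). SNHG20 and SNHG10 host small Cajal body RNAs, which guide the modification of spliceosomal RNAs. SNHG20 was at 7.95, 6.14 and 8.31 CPM and at 9.94, 10.7 and 9.18 CPM, and its groups did not overlap (log2 fold change 0.42, SE 0.14, adjusted p = 0.0167). Its call was lost without control replicate 2 (0.28, adjusted p = 0.118) and without AHR siRNA replicate 2 (0.36, adjusted p = 0.0816). SNHG10 was at 5.18, 5.38 and 5.62 CPM and at 3.89, 4.41 and 4.63 CPM, lower in each AHR siRNA library but not called (log2 fold change -0.32, SE 0.17, adjusted p = 0.106).

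The 6 hosts that were not tested had few counts. SNHG21, SNHG28, SNHG22, SNHG31, SNHG25 and SNHG14, the host of the imprinted SNORD115 and SNORD116 clusters of the Prader-Willi region, ran from 0 to 1.32 CPM in single libraries. SNHG21 was the highest of these, with means of 0.505 CPM in control and 1.0 CPM in AHR siRNA libraries, and its groups overlapped.

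**Figure D2:**
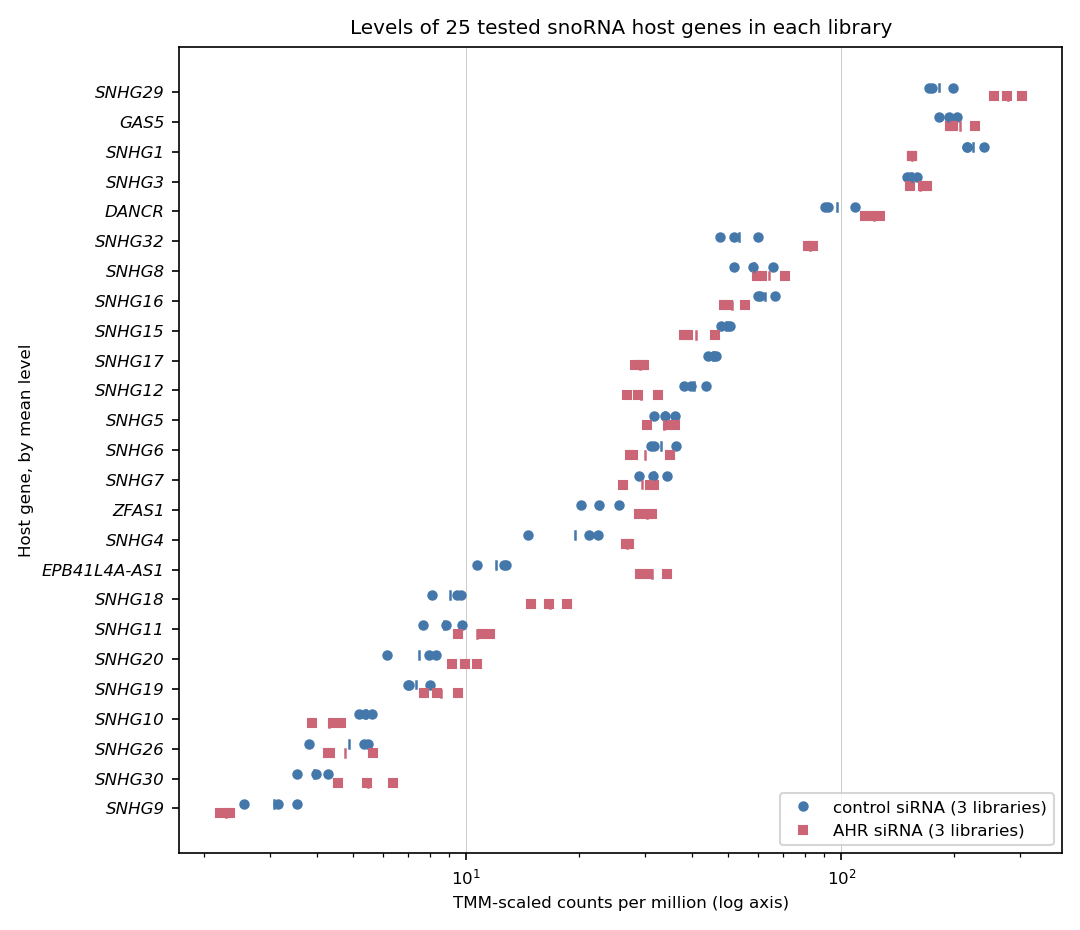
TMM-scaled CPM (horizontal log axis) of the 25 tested host genes (vertical axis, by mean level) in the 3 control siRNA libraries (circles) and the 3 AHR siRNA libraries (squares), with a short line at each group mean. SNHG1 lies above SNHG29 in control libraries (means of 224 and 182 CPM) and below it in AHR siRNA libraries (154 and 278 CPM), and the groups of EPB41L4A-AS1 lie far apart.

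Few hosts held most of the counts of the family. SNHG29, GAS5, SNHG1, SNHG3 and DANCR together held 62.6% of host gene counts. Per kilobase of exon, using GENCODE 29 exon lengths, control levels were highest for SNHG8 at 63.5 ± 7.5 CPM per kb, SNHG1 at 59.7 ± 3.7, GAS5 at 53.2 ± 3.1, SNHG29 at 48.3 ± 4.0 and DANCR at 42.6 ± 4.6 (SD, n = 3). Each of these hosts differed from the next in this order by less than the sum of their SDs. After AHR siRNA the order was SNHG29 at 74.0 ± 6.3, SNHG8 at 69.4 ± 6.5, GAS5 at 57.0 ± 4.8, DANCR at 53.3 ± 2.5, SNHG32 at 45.9 ± 0.83 and SNHG1 at 41.0 ± 0.071 CPM per kb. The first 2 of these, and GAS5 and DANCR, again differed by less than the sum of their SDs. Exon length was the union over all annotated transcripts of a gene. It was 923 bases for SNHG8 with 5 transcripts and 3631 bases for GAS5 with 29. The order between hosts therefore depends on the annotation and may not be that of the transcripts in these cells.

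Host genes together took 0.134%, 0.126% and 0.127% of all counts in control libraries and 0.162%, 0.153% and 0.147% in AHR siRNA libraries. The groups did not overlap (exact permutation p = 0.10, two-sided, the smallest that 3 against 3 libraries can give). On the TMM scale the summed level was 1363 ± 78 CPM in control and 1468 ± 83 CPM in AHR siRNA libraries (SD, n = 3), the groups overlapped and the exact permutation p was 0.200 (two-sided). With 3 libraries a group neither test could reach 0.05.

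Counts on the small RNA genes inside the hosts were sparse. By GENCODE 29, 144 such genes in the count tables lie within 30 of the hosts on the same strand, 84 of them in SNHG14. Genes absent from the count tables were left out. Of the 144, 19 had at least 1 count, 7 were tested and 1 was called, where 60.1% of all tested genes were called. SNORD99, inside SNHG12, had 33, 28 and 25 counts in control and 11, 19 and 15 counts in AHR siRNA libraries. It was lower without overlap, as was its host (log2 fold change -0.88, SE 0.29, adjusted p = 0.0127), and the call was lost without control replicate 1, when no snoRNA gene was called lower. SNORA71A, SNORA71B and SNORA71C inside SNHG17 were at -0.19, -0.20 and -0.37 and were not called, and SNORA26 inside DANCR was at 0.60 (SE 0.32, adjusted p = 0.112). SNORD104 had 496 counts in the control and 417 in the AHR siRNA libraries, while its host SNHG25 had 7 and 8, so the small RNA gene was counted far more than the host around it (log2 fold change of SNORD104 -0.19, SE 0.13, adjusted p = 0.202). Counts on such short genes can come from the host's intron or the mature snoRNA, and the labels do not state how the library preparation treated RNA of this size.

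Neighbouring genes were compared because hosts often share a promoter region or overlap with a protein-coding gene, and the labels do not state whether the counting used strand. Of 15 protein-coding neighbours compared with a tested host, 12 were called, 8 lower and 4 higher, where 60.1% of all tested genes were called. In 8 pairs both genes were called, 6 in the same direction and 2 in opposite directions, and this split was not tested. SLC3A2, which starts within 1000 bases of SNHG1 on the other strand and shares no exon base with it, was at 415, 354 and 371 CPM in control and at 265, 266 and 257 CPM in AHR siRNA libraries. Its log2 fold change of -0.53 (SE 0.07, adjusted p = 2.31e-06) stood beside -0.54 for SNHG1, and both were lower in every AHR siRNA library.

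TRNAU1AP, a selenocysteine tRNA-associated protein that overlaps SNHG12 in 8 exon bases, was lower like SNHG12 (log2 fold change -0.69, SE 0.10, adjusted p = 5.96e-06). The entry of MATR3, a nuclear matrix protein, that overlaps SNHG4 on the same strand was higher by 0.59 (SE 0.11). It was at 10.9 CPM in control and 16.4 CPM in AHR siRNA libraries, and only this MATR3 entry was compared. SIL1, a nucleotide exchange factor of the endoplasmic reticulum, was higher by 0.52 (SE 0.09) beside SNHG4. SEC14L1 was higher by 0.42 (SE 0.08) beside SNHG20 and ZNFX1 by 0.21 (SE 0.08) beside ZFAS1. These 4 share 626, 118, 460 and 249 exon bases with their hosts, so some reads of each pair cannot be assigned with certainty.

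LRRC75A and SEMA5A moved against their hosts. LRRC75A overlaps SNHG29 on the other strand in 452 exon bases and was at 24.1, 22.5 and 22.2 CPM in control and at 15.6, 15.5 and 16.0 CPM in AHR siRNA libraries, lower without overlap (log2 fold change -0.55, SE 0.09, adjusted p = 5.47e-05). SEMA5A, a semaphorin, was lower by a log2 fold change of -0.38 (SE 0.15) beside SNHG18. EPB41L4A, on the strand opposite EPB41L4A-AS1 with 1659 shared exon bases, was at 0.910 CPM in control and 0.680 CPM in AHR siRNA libraries and was not called (log2 fold change -0.40, SE 0.37, adjusted p = 0.376). RCC1, the exchange factor of the GTPase Ran, shares 242 exon bases with SNHG3 and was lower at -0.58 (SE 0.07, adjusted p = 4.17e-07), where SNHG3 was at 0.08.

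**Figure D3:**
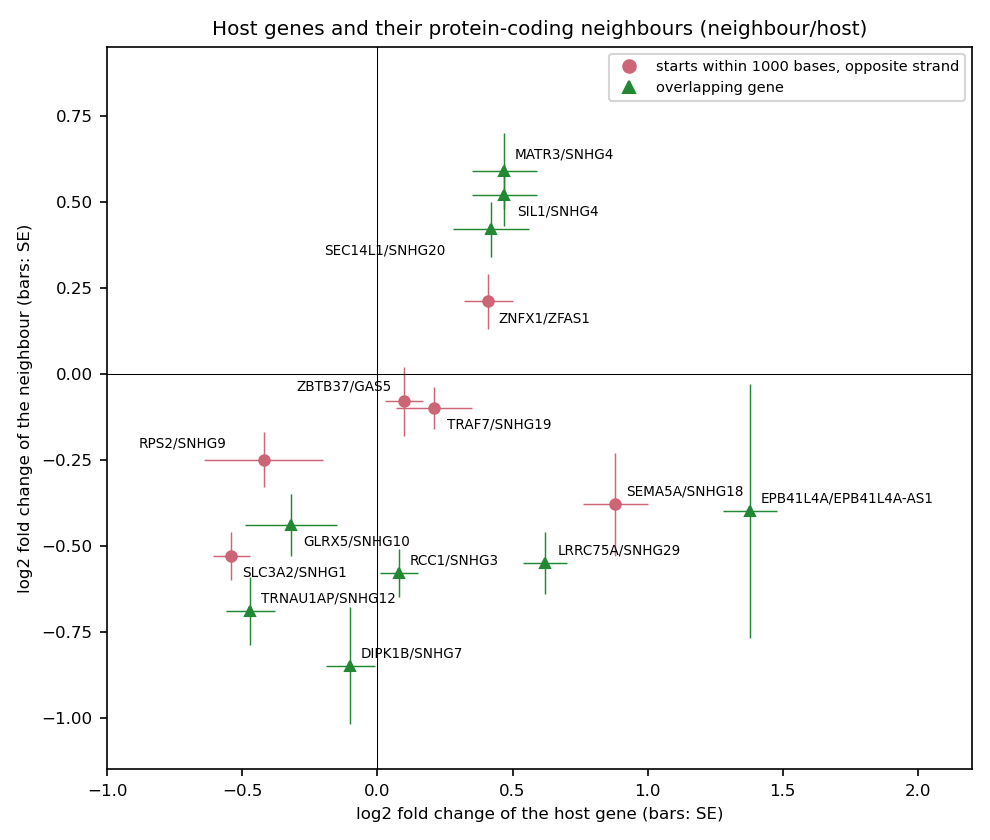
log2 fold change of each tested host gene (horizontal axis) and of its protein-coding neighbour (vertical axis), both AHR siRNA against control siRNA with SE bars, for 15 pairs; circles start within 1000 bases on the opposite strand (ZBTB37 and ZNFX1 overlap as well) and triangles overlap the host. SLC3A2 and SNHG1 lie at -0.53 and -0.54, while LRRC75A and SNHG29 lie at -0.55 and 0.62.

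Transcripts of the proteins that package snoRNAs were lower where they were called. Of the box C/D core, FBL (fibrillarin, the methyltransferase), NOP58 and NOP56 fell and none of 4 rose, with a median of -0.62. For comparison, 60.1% of all tested genes were called, and 36.4% of genes that averaged 5 CPM or more were lower. The counts in this list of 4, and in the box H/ACA list of 4 below, were not tested against these shares. FBL was at 426, 341 and 350.1 CPM in control and at 230.4, 223 and 201 CPM in AHR siRNA libraries, lower without overlap (log2 fold change -0.77, SE 0.08, adjusted p = 1.70e-07). NOP58 was at -0.73, NOP56 at -0.50 and SNU13, which was not called, at -0.15. Of the box H/ACA core, DKC1 (dyskerin, the pseudouridine synthase) at -0.41 and GAR1 at -0.50 fell, and NHP2 at -0.12 and NOP10 at -0.06 were not called (median of the 4, -0.27).

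Of 12 assembly and maturation factors, 6 fell and 1 rose, with a median of -0.22. These 12 had a called share of 58.3%, near the 60.1% of all tested genes. Among genes that averaged 5 CPM or more, 36.4% were lower and 30.7% higher, and the difference in direction was not tested. The factor that rose was NOLC1, a nucleolar and Cajal body phosphoprotein that binds snoRNPs. It was at 275, 277 and 289 CPM in control and at 546, 513 and 565 CPM in AHR siRNA libraries, near to a doubling with no overlap (log2 fold change 0.95, SE 0.07, adjusted p = 4.93e-10). TGS1, which forms the trimethyl cap, was at -0.60, RPAP3 at -0.41 and RUVBL1, an ATPase of the assembly complex, at -0.36. Without control replicate 1 or without AHR siRNA replicate 3, 2 of these factors were called higher.

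Of 18 nonsense-mediated decay factors, 7 fell and 2 rose, with a median of -0.11. The called share was 50%, below that of all tested genes (60.1%), and 38.9% fell against 36.4% of genes that averaged 5 CPM or more. EIF4A3, the helicase of the exon junction complex, was at 386, 349 and 351 CPM in control and at 178, 172 and 170.4 CPM in AHR siRNA libraries, with a wide gap between the groups (log2 fold change -1.06, SE 0.07, adjusted p = 1.16e-10). Its partners MAGOH and MAGOHB fell by 0.82 and 0.88 on the log2 scale and the helicase UPF1 by 0.39. CASC3, a further exon junction protein, rose by 0.23 and SMG8, of the SMG1 kinase complex, by 0.21. With library totals alone 5 of these factors were called higher and 4 lower, with upper-quartile factors 4 and 4, and without AHR siRNA replicate 3 none was called higher. Leaving out AHR siRNA replicate 2 or any of the 3 control replicates left 1 called higher.

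Of 31 protein-coding snoRNA hosts outside the ribosomal proteins, 17 fell and 3 rose, with a median of -0.20. The called share was 64.5%, near the 60.1% of all tested genes. By direction, 54.8% were lower and 9.68% higher, against 30.1% and 30.0% of all tested genes. Among genes that averaged 5 CPM or more, 36.4% were lower and 30.7% higher. The difference from the noncoding hosts was not tested. EIF5 was at -0.71, NCL (nucleolin) at -0.67, WDR43 at -0.64 and SF3B3 at -0.59. The hosts that rose were EEF2 at 0.37, EIF4A2 at 0.20 and TNPO2 at 0.19. With library totals alone 11 of these were lower and 7 higher, and 1 was higher without control replicate 2 or without control replicate 3.

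Genes known for TOP starts gave counts in both directions. Of 14 tested translation factors with TOP starts, 5 rose and 3 fell (median 0.02), with EIF3F at 0.81, EIF4B at 0.45, EEF2 at 0.37 and HNRNPA1 at -0.35. EEF1A1 at 0.33 and EIF3L at 0.17 also rose, and NPM1 at -0.36 and EIF3E at -0.19 also fell. The called share of these translation factors was 57.1%, near the 60.1% of all tested genes. Of 80 tested ribosomal protein genes 5 rose and 7 fell, with a median of -0.03, and RPL13A was at 0.48, RPL35 at -0.39, RPS15 at -0.34 and RPS27A at -0.39. The other 4 that rose, RPL3, RPL37, RPL11 and RPL28, were at 0.20 to 0.25. The called share of ribosomal protein genes was 15%. This count moved with the scaling and the libraries: 28 were higher and 3 lower with library totals alone, 15 and 4 with upper-quartile factors, and 24 were higher without control replicate 1. Leaving out control replicate 2, control replicate 3 or AHR siRNA replicate 1 gave 1, 1 and 2 higher and 16, 11 and 14 lower, leaving out AHR siRNA replicate 2 gave 1 higher, and leaving out AHR siRNA replicate 3 gave 9 higher and 3 lower. Many ribosomal protein genes have processed pseudogenes, so their counts are uncertain.

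In a list of 16 genes for control of TOP translation and mTORC1, 5 rose and 4 fell, with a median of 0.00. The list also held the transcription factors MYC and MAX. LARP1, which binds the TOP tract, was at 0.56, the mTORC1 inhibitor TSC1 at 0.58 and the RNA-binding protein TIA1 at 0.51, while LARP4 was at -0.81. TSC2 at 0.50 and MYC at 0.34 rose as well, and EIF4EBP1 at -0.48, RPS6KB1 at -0.42 and TIAL1 at -0.36 fell. The called share of this list was 56.2%, near the 60.1% of all tested genes. Host genes of microRNAs, a second kind of noncoding host, gave 6 higher and 5 lower of 19 tested, with a median of 0.08. Their called share was 57.9%, also near that of all tested genes. MIR200CHG was at 1.73, MIRLET7BHG at -0.71, MIR3142HG at -1.92 and MIR22HG at -0.64. MIR23AHG at -0.39 and MIR222HG at -0.29 were also lower, and 3 were lower without AHR siRNA replicate 3 or with library totals alone.

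**Figure D4:**
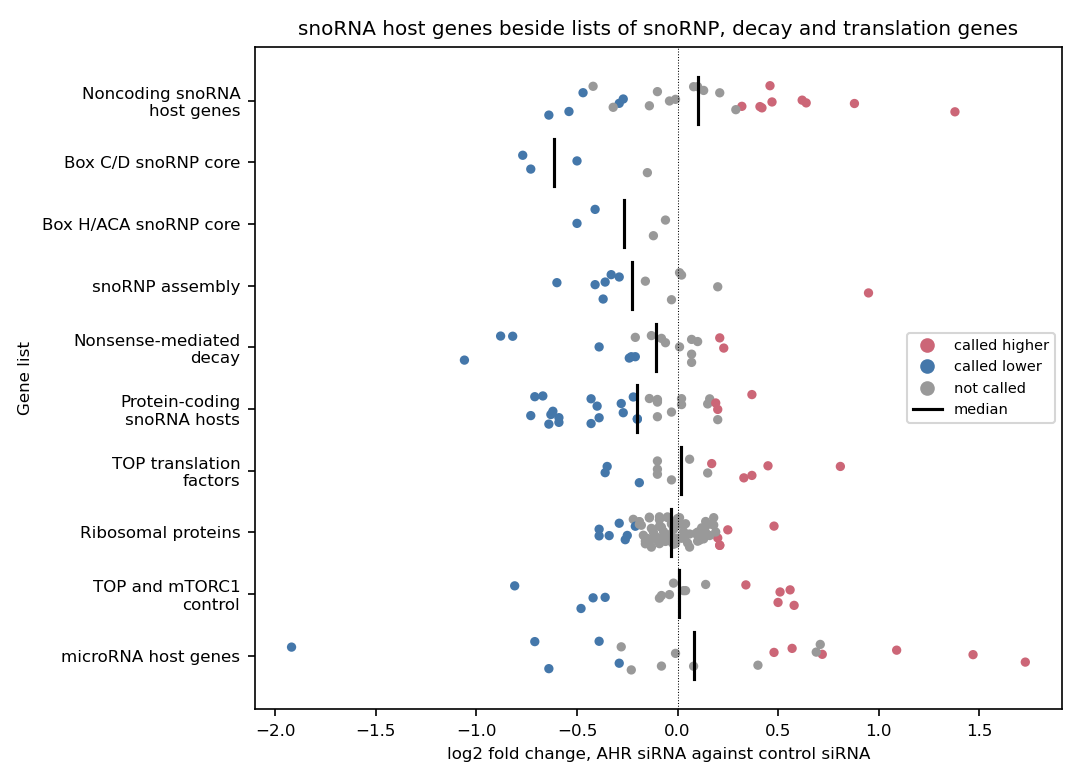
log2 fold change (horizontal axis, AHR siRNA against control siRNA) of each tested gene in 10 lists (vertical axis), coloured by call, with the median of each list as a black line. Noncoding snoRNA hosts have a median of 0.10 and spread from -0.64 to 1.38, and all box C/D core proteins lie below 0.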

How the data were processed

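RNA-seq was made from total RNA of 6 DLD-1 libraries. The deposited files hold counts of reads per Ensembl gene ID, 1 file per library, made by the authors with TopHat2 2.0.11, TopHat and HTSeq named, without role or order, together with hg19 and GRCh37, per the submitters' processing notes. Of the annotation, the strand setting and the treatment of reads with several matches, nothing is stated in the labels. The members and the gene lists were chosen with earlier results of these data known.

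IDs were matched to symbols by a gene name table, which held 56321 of 60483 IDs and gave 41124 a symbol. Genes were filtered with edgeR 4.0.16 (filterByExpr, defaults), scaled by TMM and tested with its quasi-likelihood test, with group as the only term and Benjamini-Hochberg adjustment over 14900 genes; a gene was called at an adjusted p under 0.05. The script was tested on simulated counts. A mean of at least 5 CPM gave a host its values per library, called hosts above 1 CPM were named too, and of each list up to 4 called genes with the smallest p were named. SNHG9, SNHG10 and SNHG26, and the remaining called genes where a list had 5 or fewer in a direction, were named after their values were seen.

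Exon lengths, neighbours and embedded genes came from GENCODE 29 and start sequences from RefSeq; coordinates of these references were not applied to the reads. A neighbouring gene is not reported here and was left out of the neighbour counts. The 15 alternatives were other scalings, filters, DESeq2 1.42.0, limma-voom (limma 3.58.1), a replicate block, a fit without the most abundant genes, and each library left out in turn. R 4.3.3 and Python 3.11.15 were used.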

Additional observations from a re-analysis of the deposited data

How the results depend on the processing

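With library totals alone, 14 hosts were called higher, 3 lower, and their median log2 fold change was 0.25. In the 14 other settings these counts stayed within 1.5 times of 9 and 5. Leaving out each library in turn gave 8 to 10 hosts higher, 4 to 6 lower, and a median of 0.05 to 0.14. AHR stayed lower in all settings, from -0.58 to -0.35. Of the 14 called hosts, 10 kept call and sign in all 15 alternatives and 4 lost the call in at least 1 (SNHG15, SNHG16, SNHG20, SNHG30). Of the 11 others, 6 were called in at least 1.

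Deviations of libraries with the same replicate number correlated at 0.193, -0.0405 and 0.154, so the numbers were not taken as pairs, and not every library correlated best with its own number. With the replicate block 9598 genes were called, against 8953, and 9 hosts were higher and 5 lower; 15 ribosomal protein genes were higher and 23 lower, 5 protein-coding hosts were higher and 2 assembly factors were higher.

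Other counts also moved by over 1.5 times. With upper-quartile factors and with library totals alone, 2 and 3 assembly factors were higher, and 5 and 7 protein-coding hosts. Without a filter 1 decay factor was higher and 16 ribosomal protein genes lower, and with DESeq2 1 decay factor was higher. Without the abundant genes 3 TOP translation factors were higher. Hosts under about 5 CPM had SEs of 0.17 to 0.22, which limits what could be called there.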

Other observations

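Outside SNHG14, the count tables held 60 small RNA genes inside hosts, and 37 of these overlap an exon of their host in GENCODE 29. Of the 37, 36 were at 0 counts in all libraries while the other had 4. The 23 that overlap no host exon had 1792 counts over 18 genes. The part of the counting rule for reads that touch more than 1 gene in this was not tested.

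Among neighbours of hosts that were not tested, ABCA12, a lipid transporter, was at 22.7 CPM in control and 4.35 CPM in AHR siRNA libraries (log2 fold change -2.39, SE 0.14, edgeR adjusted p = 7.28e-11), and BARD1, the partner of BRCA1, was at 32.8 and 14.4 CPM (-1.19, SE 0.10). Both lie beside SNHG31, which was at 0.243 and 0.199 CPM. ACAA2, a thiolase of fatty acid oxidation beside SNHG22, was higher by 0.72 (SE 0.09, adjusted p = 7.49e-07).

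Among all snoRNA genes in the table, 20 were tested, 2 were called higher and 1 lower. SNORD94 was at 0.470 CPM in control and 1.24 CPM in AHR siRNA libraries (1.38, SE 0.40, edgeR adjusted p = 0.00640) and SNORA11F at 0.567 and 1.10 CPM (0.95, SE 0.37, adjusted p = 0.0346). The count of higher genes was 1 without control replicate 2, AHR siRNA replicate 1 or AHR siRNA replicate 2, 1 with DESeq2 or without a filter, and 0 with a filter of 1 CPM.

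In the RefSeq promoter table the 6 bases before the start were GAATTC in 19 of 35116 promoters (0.0541%) and in 2 of the 27 host promoters, those of GAS5 and EPB41L4A-AS1.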
